A study of Glycine max with 3 samples.

Results

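The gene models described here are 137 of 66210 soybean (Glycine max) gene models. They took many reads in each of 3 seed regions, at levels less than 2-fold apart on unscaled library totals. They were chosen by their measured values: at least 150 CPM (reads of a gene model divided by the library's total and multiplied by 1000000, with no other scaling) in each of the 3 libraries, and a highest CPM less than 2 times the lowest. All plants were of the cultivar Asgrow A3237. The embryo proper, which gives rise to the seedling, and the suspensor, a short-lived stalk that anchors and feeds it, were cut by laser from paraffin sections of 6 µm of globular-stage embryos. The seed coat parenchyma, a maternal layer around the embryo, was cut from sections of 8 µm of early maturation-stage seeds with another instrument. Each region gave 1 library, whose assigned reads summed to 11603055 (embryo proper), 8365831 (suspensor) and 11894273 (seed coat parenchyma). No value therefore has a replicate, no test was possible, and the intervals given are 95% intervals of counting error only. What tissue, stage, section thickness and instrument each contributed to a difference from the seed coat parenchyma cannot be told apart.

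Transcripts that stay at a steady level across tissues usually serve tasks that every cell needs, such as protein synthesis, protein turnover, energy supply and the cytoskeleton. In plants such genes are widely used as internal references, against which the transcripts of other genes are measured. Whether a gene looks steady in sequencing data also depends on how the libraries are put on a common scale, because a few very abundant transcripts in one library lower the share left for all the rest. Soybean carries many near-identical gene copies from old genome duplications, so that reads of one copy can be counted at another. The deposited tables pair no gene model with a gene name, and the reference table matched 0 of the 66210 identifiers, so no function, length, sequence or coordinate is given for any member and no marker of a tissue could be looked up. CPM is not divided by gene length, so a high CPM means that a gene model took many reads, not that it had more transcripts than another.

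Few gene models reached the level minimum in any library. A level of 150 CPM was reached by 1020 gene models in the embryo proper, 957 in suspensor and 963 in seed coat parenchyma, and by 310 in all 3 libraries. Of these 310, 137 (44.2%) stayed within 2-fold and the other 173 did not. That share follows from the rule and the way it counts, and nothing is read from it. A level of 150 CPM stood for 1740 reads in the embryo proper, 1255 in suspensor and 1784 in seed coat parenchyma, so that each member rested on at least 1266 reads in every library.

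**Figure D1:**
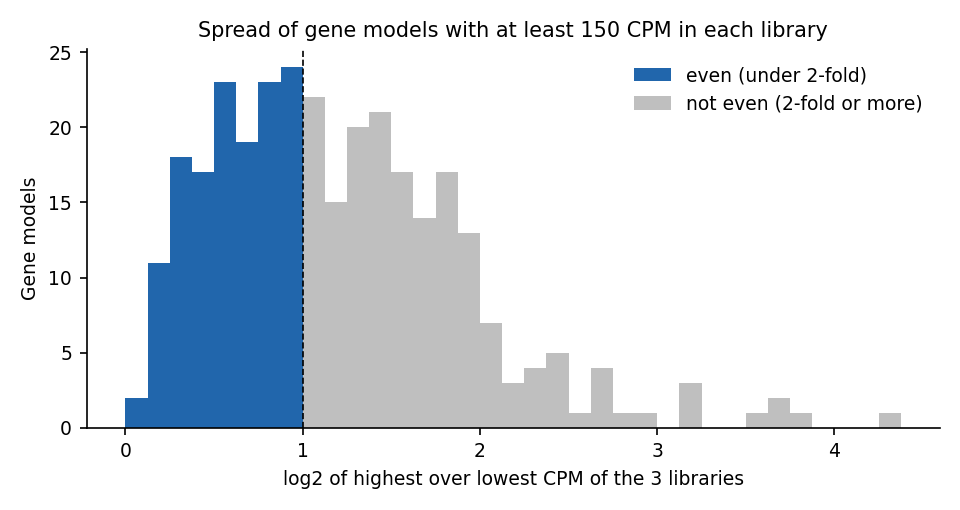
Number of gene models (y axis) by the log2 of their highest over lowest CPM (x axis), for the 310 gene models with at least 150 CPM in each library. The 137 even ones (blue) lie left of the dashed 2-fold line and run into the other 173 (grey) with no gap at the line.

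The limits cut through a continuous spread. Just inside the 2-fold limit lay Glyma15g33980, with 529 CPM in the embryo proper, 434 in suspensor and 266 in seed coat parenchyma (highest over lowest 1.99, interval 1.91 to 2.08), and Glyma15g05570, with 295, 298 and 588 CPM in the same order (1.99, 1.91 to 2.07). Just outside lay Glyma05g26360, with 320, 643 and 542 CPM (2.01, 1.92 to 2.09), and Glyma18g48360, with 210, 306 and 152 CPM (2.01, 1.89 to 2.14). The intervals of all 4 hold 2, so counting error alone leaves their side of the limit undecided. At the level limit, Glyma03g29230 and Glyma01g23500 entered with 151 and 152 CPM in the suspensor. Glyma06g11010 missed with 149.8 CPM and Glyma09g39380 with 149 CPM, both in the embryo proper. The upper bound of highest over lowest was under 2 for 124 of the 137 members and reached 2 or more for the remaining 13.

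A few members carried a large part of the reads. Together the 137 took 9.65% of embryo proper reads (Wilson interval 9.64 to 9.67%), 9.03% of suspensor reads (9.01 to 9.05%) and 7.38% of seed coat parenchyma reads (7.36 to 7.39%). Without the 2 members with the most reads, a step added after the data had been seen, the shares were 6.55%, 6.06% and 5.56%, in the same order. The share was thus lowest in the seed coat parenchyma with and without them, but the gap was smaller without them. With TMM factors, which bring the bulk of gene models onto a common level, 104 gene models met the rule. Their shares of the unscaled reads were 6.24%, 5.27% and 5.78%, in the same order, the lowest in the suspensor. These 104 were chosen anew as even on the TMM scale, and 25 of them were not members. The order of their shares depends on that choice, and nothing is read from it. The member in the middle of the ranking by mean CPM stood at 298 CPM, and the mean CPM ranged from 162 to 15047. A mean of 150 to 200 CPM was found for 16 members, 200 to 300 for 53, 300 to 500 for 40, 500 to 1000 for 16 and 1000 or more for 12.

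The member with the most reads was Glyma17g23870, on chromosome 17. It stood at 17411 CPM in the embryo proper (202016 reads), 18389 CPM in suspensor (153837 reads) and 9342 CPM in seed coat parenchyma (111118 reads). Both embryo regions were thus close to each other and the seed coat parenchyma was lower, at a suspensor over seed coat ratio of 1.97 (1.95 to 1.98), just within the limit. Glyma09g29370, on chromosome 9, came next, with 13630 CPM in the embryo proper, 11346 in suspensor and 8855 in seed coat parenchyma. On unscaled totals this was a step down from each library to the next, and its embryo proper over seed coat ratio was 1.54 (1.53 to 1.55). With TMM factors both embryo regions were nearly level, at 13712 CPM in the embryo proper and 13641 in suspensor, against 7320 in seed coat parenchyma. Whether these 2 gene models collect reads of repeated or near-identical sequence was not tested, and their CPM may not be that of a single gene.

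The next 4 by mean CPM took fewer reads and differed in shape. Glyma08g36390, on chromosome 8, stood at 4511 CPM in the embryo proper, 4153 in suspensor and 2576 in seed coat parenchyma, the same shape as Glyma17g23870 in that the seed coat parenchyma stood apart. Glyma18g10330, on chromosome 18, was flatter, at 3748, 3654 and 2981 CPM in the same order (highest over lowest 1.26, interval 1.24 to 1.28). Glyma03g23290, on chromosome 3, was high in the embryo proper, with 3462 CPM against 1750 in suspensor and 1898 in seed coat parenchyma. Glyma15g17680, on chromosome 15, stood at 1929, 1903 and 1592 CPM, and its embryo proper over suspensor ratio of 1.01 (0.993 to 1.04) was within counting error of 1. Of the 12 members with a mean of 1000 CPM or more, 8 were highest in the embryo proper, 2 in suspensor and 2 in seed coat parenchyma, and 7 were lowest in the seed coat parenchyma. With TMM factors 7 of the 12 were highest in suspensor, 5 in embryo proper and 0 in seed coat parenchyma.

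**Figure D2:**
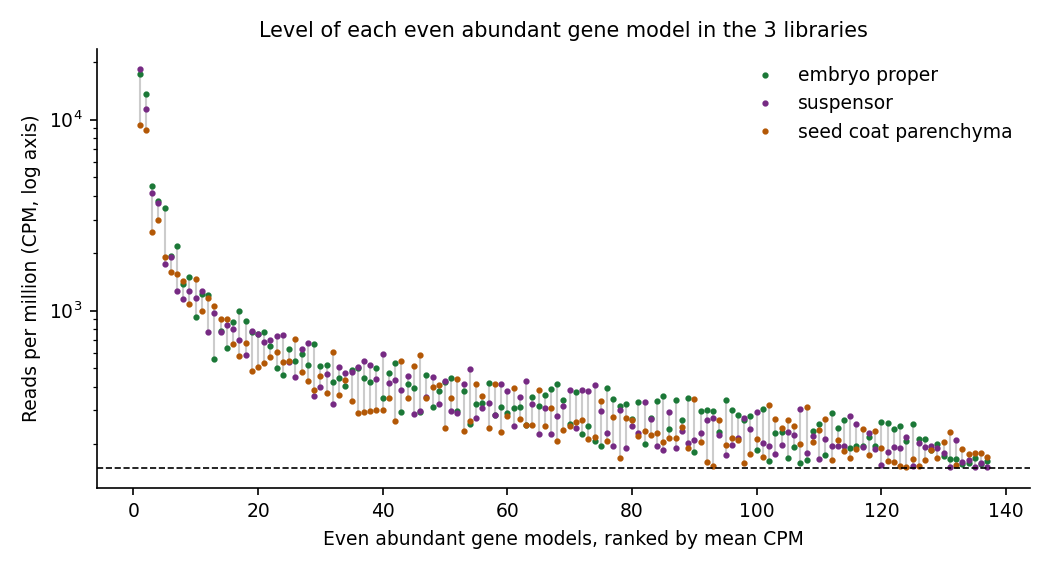
CPM (log y axis) of each of the 137 even abundant gene models in the embryo proper, suspensor and seed coat parenchyma libraries, ranked by mean CPM (x axis), with a grey line from the lowest to the highest library and a dashed line at 150 CPM. The 2 leading gene models stand far above the rest, and the order of the colours changes from one gene model to the next.

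Within the limit the members differed in how flat they were. The highest over lowest ratio had a median of 1.53 and an interquartile range of 1.31 to 1.75. It was under 1.1 for 2 members, under 1.2 for 15, under 1.5 for 63 and at 1.5 or more for the others. By level, the median ratio was 1.24 for members with a mean under 200 CPM, 1.58 from 200 to 300 CPM, 1.62 from 300 to 500 CPM, 1.48 from 500 to 1000 CPM and 1.55 at 1000 CPM or more. The low value in the lowest class follows from the rule, since a gene model with a mean near 150 CPM and no library below 150 CPM has little room to vary.

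The flattest member was Glyma06g16220, on chromosome 6, with 186 CPM in the embryo proper (2162 reads), 195 CPM in suspensor (1635 reads) and 185 CPM in seed coat parenchyma (2206 reads). Its highest over lowest ratio was 1.05 (0.988 to 1.12), and it was the 1 member whose counting interval held 1 in all 3 comparisons. Glyma08g45420, on chromosome 8, stood at 269, 247 and 269 CPM (1.09, 1.03 to 1.15), with embryo proper and seed coat parenchyma level with each other and the suspensor slightly lower. Glyma08g41240, also on chromosome 8, had 159, 164 and 178 CPM (1.12, 1.05 to 1.19), and Glyma01g23500, on chromosome 1, had 164, 152 and 170 CPM (1.12, 1.05 to 1.21). In both the seed coat parenchyma was the highest, though in Glyma01g23500 within counting error of the embryo proper (embryo proper over seed coat ratio 0.960, 0.902 to 1.02). On unscaled totals all 3 ratios lay outside counting error of 1 for 94 members, so that even here means within 2-fold and not equal. No replicate shows how much of that lies between samples of 1 region.

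The first comparison set the embryo proper against the suspensor of the same stage. By the median, though not by the numbers higher and lower, the members were nearest to level there on unscaled totals. Their median log2 ratio was 0.08 (interquartile range -0.17 to 0.37), with 83 members higher and 54 lower in the embryo proper. A ratio of 1.5-fold or more was found for 19 members higher in the embryo proper and 13 lower. Among the 20184 gene models that averaged 5 CPM or more, 43.7% were 1.5-fold or more higher and 31.1% lower, with a median log2 ratio of 0.33. The rule bounds the members' ratios, so the smaller counts among them are no result. The interval of the ratio held 1 for 26 members, lay above 1 for 69 and below 1 for 42. With TMM factors 4 members were 1.5-fold or more higher and 24 lower, and the median turned to -0.17. Such differences, like all between bulk captures, cannot separate fewer cells of a type from less RNA per cell.

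The largest ratios towards the embryo proper were those of Glyma03g23290, at 1.98 (1.94 to 2.02), and Glyma06g17360, with 342 CPM in the embryo proper against 176 in suspensor and 197 in seed coat parenchyma. In both the suspensor and seed coat parenchyma were close to each other on unscaled totals. On the other side, Glyma09g07980 stood at 207 CPM in embryo proper against 407 in suspensor, a ratio of 0.508 (0.482 to 0.536), and Glyma09g41430 at 253 and 495 CPM, a ratio of 0.511 (0.488 to 0.536). Their seed coat levels of 217 and 264 CPM lay near those of the embryo proper, so that the suspensor alone stood apart.

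The second comparison was of suspensor against seed coat parenchyma, regions that differ in stage and in origin. The median log2 ratio of the members was 0.15 (interquartile range -0.22 to 0.44), with 78 members higher and 59 lower in the suspensor. At 1.5-fold or more, 23 were higher in the suspensor and 13 lower, beside 26.9% higher and 50.1% lower among all 20184 gene models, whose median log2 ratio was -0.59. The members' median lay on the other side of 0 from that of all gene models compared, which on unscaled totals took smaller shares in the suspensor than in the seed coat parenchyma. This was not particular to the members. The 310 gene models with at least 150 CPM in each library, even or not, had a median log2 ratio of 0.23. The interval of the ratio held 1 for 8 members. With TMM factors 75 members stood higher in the suspensor by 1.5-fold or more and 0 stood lower.

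Towards the suspensor, Glyma17g23870 was followed by Glyma15g03080, on chromosome 15, with 349 CPM in the embryo proper, 589 in suspensor and 299.8 in seed coat parenchyma and a suspensor over seed coat ratio of 1.97 (1.88 to 2.05). Towards the seed coat parenchyma, Glyma15g05570 had a suspensor over seed coat ratio of 0.507 (0.484 to 0.531). Its levels in both embryo regions differed by less than counting error, with an embryo proper over suspensor ratio of 0.991 (0.941 to 1.04). Glyma11g03650, on chromosome 11, had 422 CPM in the embryo proper, 323 in suspensor and 607 in seed coat parenchyma, a ratio of 0.532 (0.509 to 0.556), with the embryo proper in between.

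The third comparison, embryo proper against seed coat parenchyma, gave the largest imbalance among the members on unscaled totals. Their median log2 ratio was 0.25 (interquartile range -0.19 to 0.55), with 91 higher and 46 lower in the embryo proper. At 1.5-fold or more, 31 were higher and 10 lower, beside 32.8% higher and 43.0% lower among all 20184 gene models, whose median log2 ratio was -0.27. Of the 310 gene models with at least 150 CPM in each library, 48.1% were higher and 12.9% lower, with a median of 0.54. The imbalance was thus not particular to the members, whose ratios the rule bounds. The interval of the ratio held 1 for 11 members. With TMM factors 62 members were 1.5-fold or more higher and 6 lower.

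Glyma15g33980 and Glyma04g43500 had the largest ratios towards the embryo proper, at 1.99 for each. Glyma04g43500, on chromosome 4, stepped down through the libraries, with 412 CPM in the embryo proper, 281 in suspensor and 208 in seed coat parenchyma. Towards the seed coat parenchyma, Glyma15g05570 had a ratio of 0.503 (0.482 to 0.524) and Glyma11g20840, on chromosome 11, one of 0.507 (0.480 to 0.536). Glyma11g20840 stood at 162 CPM in the embryo proper, 196 in suspensor and 320 in seed coat parenchyma, so that the seed coat parenchyma stood above both embryo regions in both gene models.

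Over the 3 libraries, all 6 possible orders occurred among the members. The order embryo proper, suspensor, seed coat parenchyma from high to low was the most frequent with 40 members, followed by suspensor, embryo proper, seed coat parenchyma with 28. The seed coat parenchyma was lowest for 68 members, the suspensor for 43 and the embryo proper for 26. It was highest for 36, against 63 for the embryo proper and 38 for the suspensor. With TMM factors the suspensor was highest for 86 members, the embryo proper for 40 and the seed coat parenchyma for 11. The 173 gene models that met the level minimum but not the 2-fold limit had a higher median of mean CPM, 438 against 298 for the members. The rule favours this, since a gene model 2-fold or more apart with no library under 150 CPM cannot have a mean near 150 CPM. The lowest mean was 222 CPM among the 173 and 162 CPM among the members. Of the 173, on unscaled totals 110 were highest in the embryo proper, 35 in suspensor and 28 in seed coat parenchyma. Their highest over lowest ratio had a median of 2.99 and reached 20.4 in Glyma05g23230, named after its values were seen, with 1570 CPM in the embryo proper, 201 in suspensor and 4095 in seed coat parenchyma.

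**Figure D3:**
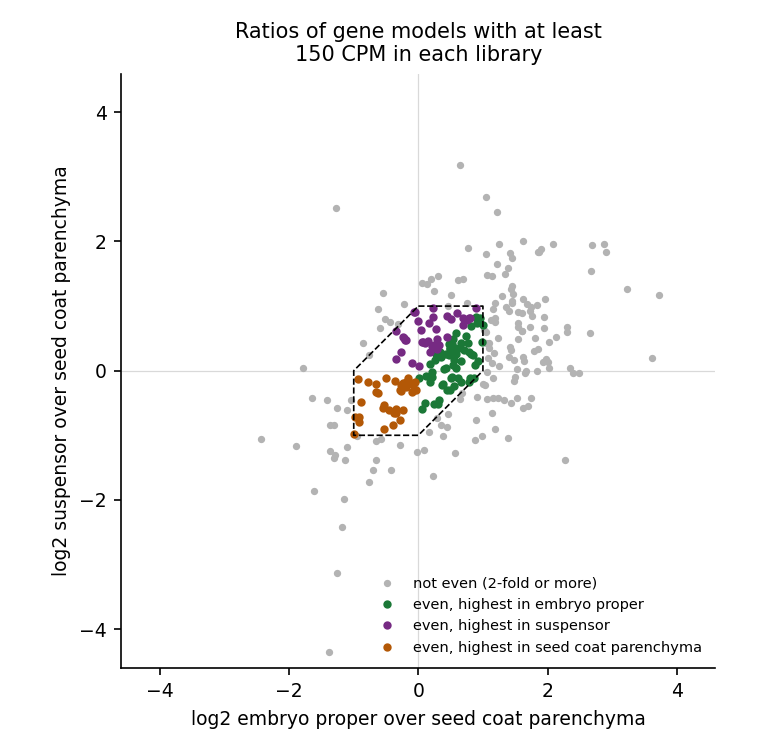
log2 ratio of suspensor over seed coat parenchyma (y axis) against log2 ratio of embryo proper over seed coat parenchyma (x axis) for the 310 gene models with at least 150 CPM in each library, on unscaled totals. The 137 even ones, coloured by the library in which they were highest, fill the dashed 2-fold limit, and the other 173 (grey) lie mostly towards the embryo proper side.

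Which gene models count as even depended on how the libraries were scaled. The TMM factors were 0.994 (embryo proper), 0.832 (suspensor) and 1.21 (seed coat parenchyma). They moved the median log2 ratio of all 20184 gene models to 0.08, -0.05 and 0.02 in the order of the comparisons, from 0.33, -0.59 and -0.27 on unscaled totals. The members' own medians became -0.17 for embryo proper over suspensor, 0.69 for suspensor over seed coat parenchyma and 0.54 for embryo proper over seed coat parenchyma. Each factor shifts all ratios of a pair of libraries by 1 constant, and the members had been held near 0 on unscaled totals. The 173 gene models that met the level minimum but not the 2-fold limit had unscaled medians of 0.83, 0.335 and 1.17 in the order of the comparisons. What sets the members apart from the bulk of gene models was not tested. Nothing is read from that distance or from the change of sign between embryo proper and suspensor.

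**Figure D4:**
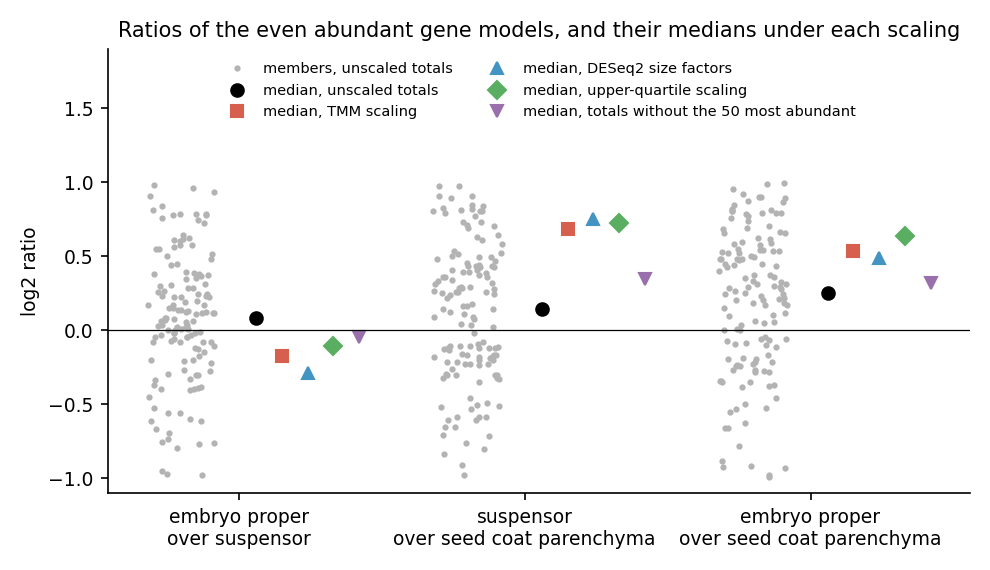
log2 ratio (y axis) of the 137 even abundant gene models in the 3 comparisons on unscaled totals (grey points), with their median on unscaled totals and under 4 other scalings (symbols). The median of embryo proper over suspensor lies just above 0 on unscaled totals and below 0 under the other 4 scalings, and the medians of both seed coat comparisons lie above 0 under all 5.

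With TMM 104 gene models met the rule, 79 of them members and 25 not. Of the 137 members, 44 were then 2-fold or more apart, of which 30 were highest in the suspensor and lowest in the seed coat parenchyma and 12 highest in the embryo proper and lowest in the seed coat parenchyma. A further limit was the level, since 22 members fell under 150 CPM in a library. Glyma17g23870 stood at 17516 TMM-scaled CPM in the embryo proper, 22110 in suspensor and 7723 in seed coat parenchyma, which put it 2.86-fold apart. Under each of TMM, DESeq2 size factors, upper-quartile scaling, totals without the 50 most abundant gene models, and thinning to the smallest library, 70 of the 137 members met the rule. They include 2 of the 6 members with the most reads, Glyma18g10330 and Glyma15g17680, and 1 of the 4 flattest, Glyma08g45420. The other flattest members stayed within 2-fold with TMM: Glyma06g16220 at 1.53, Glyma08g41240 at 1.34 and Glyma01g23500 at 1.29. With TMM, Glyma08g41240 and Glyma01g23500 missed the level minimum, with 147 and 141 CPM in seed coat parenchyma. The flattest member on the TMM scale, named after its values were seen, was Glyma06g10360, with 325 TMM-scaled CPM in the embryo proper, 328 in suspensor and 339 in seed coat parenchyma, 1.04-fold apart.

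Position was not used in choosing the members. The identifiers carry a chromosome number and a running number along it, and 135 members carried the number of 1 of the 20 chromosomes. The other 2 were on unplaced scaffolds. Glyma0776s00200 stood at 773 CPM in the embryo proper, 687 in suspensor and 534 in seed coat parenchyma, and Glyma1000s00210 at 314, 353 and 272 CPM. Every chromosome held at least 1 member, with 2.05 members for each 1000 gene models overall. The most were on chromosome 15 (12 members, 3.56 for each 1000) and chromosome 9 (11 members, 3.27), and the fewest on chromosomes 19 and 16, with 1 member each. Past the midpoint of the numbering of their chromosome lay 85 of the 135 members (63.0%). Of the gene models that met the level minimum and were not even, 79 of 168 (47.0%) lay past it. Of all 65781 gene models with a chromosome number, 32894 (50.005%) did. In the last 20% of the numbering the shares were close, at 28.1% of members and 26.8% of those that were not even. Both lay above the 20.01% of all gene models, so the higher share there was not particular to the members. On chromosome 10 all 9 members lay past the midpoint, and on chromosome 6, 7 of 10 lay before it. More members lay past it than before it on 14 chromosomes, fewer on 4, and as many on 2. The splits at the midpoint and at the last 20% were not planned. The end from which each chromosome is numbered was not looked up. These positions are a description of 135 gene models, and no test was made.

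Members were mostly scattered singly. Gene models in direct succession were both members in 2 cases, Glyma09g24780 with Glyma09g24790 and Glyma17g23830 with Glyma17g23840. On chromosome 9, Glyma09g24780 had 1506 CPM in the embryo proper, 1273 in suspensor and 1080 in seed coat parenchyma, and Glyma09g24790 had 422, 521 and 298 CPM, with the seed coat parenchyma lowest in both. Within 5 places there was also Glyma08g44120 with Glyma08g44170 on chromosome 8. In all, 5 pairs of successive members lay within 5 places, with those of chromosome 17 described below. The gene models that met the level minimum and were not even formed 1 pair in direct succession and 8 within 5 places.

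The closest grouping was on chromosome 17, where 4 members lay within 7 successive gene models. Glyma17g23810 had 1215 CPM in the embryo proper, 1264 in suspensor and 998 in seed coat parenchyma. Glyma17g23830 had 499, 509 and 290 CPM and Glyma17g23840 had 512, 400 and 454 CPM. The grouping ended with Glyma17g23870, the member with the most reads. Its direct neighbours Glyma17g23860 and Glyma17g23880 had 0 reads in every library, so abundance there changed sharply from one gene model to the next. Glyma17g23900, further along, took 5327 CPM in the embryo proper, 1387 in suspensor and 2903 in seed coat parenchyma, and was abundant but not even.

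**Figure D5:**
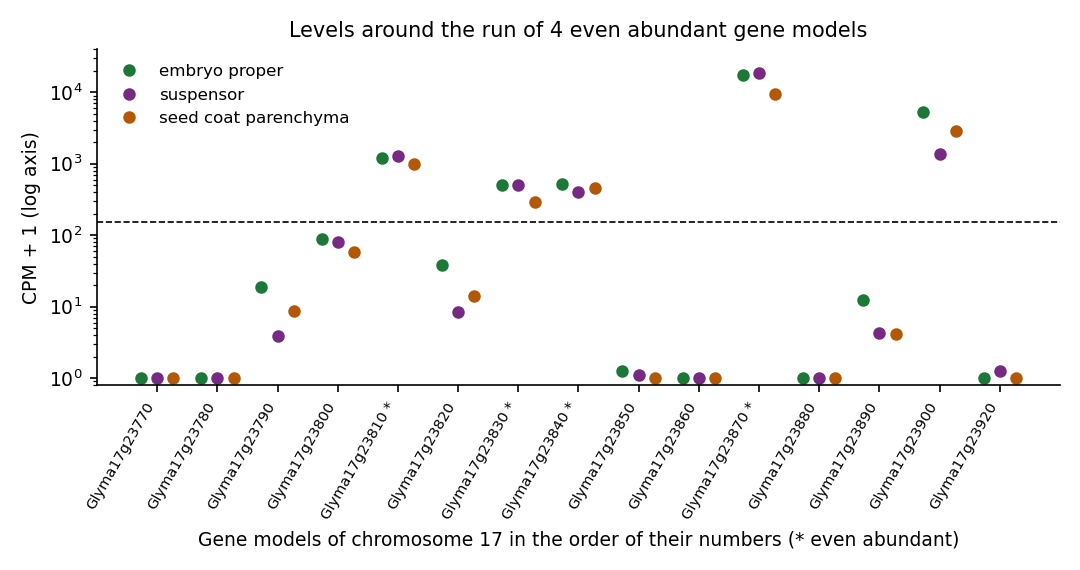
CPM + 1 (log y axis) in the 3 libraries of 15 successive gene models of chromosome 17 in the order of their numbers (x axis). Members are starred, the dashed line marks 150 CPM, and points at 1 stand for 0 reads. Glyma17g23870 stands at 9342 CPM or more in each library between neighbours with no reads.

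The gene models next to members reached 1 CPM more often than gene models at large, a difference that was not tested. Of the 265 gene models in the place directly before or after a member and not members themselves, 155 (58.5%) reached 1 CPM in at least 1 library and 86 (32.5%) reached it in all 3. Over all 65781 gene models with a chromosome number these shares were 48.9% and 26.1%. Neighbours of the 173 gene models that met the level minimum and were not even had 63.4% and 35.4%. Those 173 took more reads than the members, in part through the rule. The median level of the members' neighbours was low, at 1.17 CPM averaged over the libraries, against 0.308 CPM for all gene models. Of the 265, 2 reached 150 CPM in every library.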

How the data were processed

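Each library has 1 deposited table of raw counts, the number of mapped reads of each of 66210 gene models per the file headers. Per the labels' protocols, RNA from laser-captured regions was amplified as cDNA, and the libraries went through 15 further PCR cycles and were read as single-end reads of 76 nt. The submitters' processing notes name Bowtie as a tool. Not given in the sources used here are its version, the build and annotation, how reads with several hits were counted and whether strand was used. Reads of near-identical copies or of overlapping genes may therefore be split between gene models, and PCR copies were not told apart from independent molecules.

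CPM was computed on the unscaled total of each table. Ratios have 95% exact Clopper-Pearson counting intervals and shares of reads have 95% Wilson intervals. Both count PCR copies as separate reads and may therefore be too narrow. With 1 library per region there is no p-value and no error between samples. Differences of 1.5-fold were counted, also over all gene models that averaged 5 CPM or more. Medians of log2 ratios over those gene models leave out the ones with 0 reads in both libraries. Members and lists were chosen with earlier results of these data known. Gene models were named by a rule: the 6 members with the highest mean CPM, the 4 with the smallest highest over lowest ratio, 2 inside and 2 outside each limit, 2 per direction in each comparison, and the closest groups of members. The planned grouping by gene product could not be made. Alternatives were TMM and upper-quartile factors (edgeR 4.0.16), DESeq2 1.42.0 size factors, totals without the 50 most abundant gene models, thinning, other limits, and removal of scaffolds. The scripts were tested on simulated data. Tools were R 4.3.3, Python 3.11.15, NumPy 2.4.6, pandas 2.3.3, SciPy 1.17.1 and matplotlib 3.10.9.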

Additional observations from a re-analysis of the deposited data

How the results depend on the processing

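No paired analysis was possible because there is a single library for each region. Of 152 alternative values, 61 stayed within 1.5 times a count or within the counting interval and 91 did not. For a median ratio that interval was the one of the member in the middle. Removal of scaffolds could not change the values for successive members and neighbours, which use gene models with a chromosome number only. Many of the 91 changed what was counted. The number of gene models that met the rule was 237 at 100 CPM, 42 at 300 CPM, 3647 with no minimum beyond 1 read, 63 under 1.5 times and 225 under 3 times, against 137. It lay between 101 and 135 under the other scalings, thinning, the counting bound and removal of scaffolds. With the members fixed, the median log2 ratio of embryo proper over suspensor turned from 0.08 to -0.17 with TMM, -0.29 with DESeq2 size factors, -0.11 with upper-quartile scaling and -0.045 on totals without the 50 most abundant gene models. These factors shift every ratio of 2 libraries by the same amount.

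Members higher by 1.5-fold or more in embryo proper than in suspensor numbered 4 with TMM, 2 with DESeq2 and 11 with upper-quartile scaling, 39 at 100 CPM and 4 at 300 CPM, against 19. Lower ones numbered 24 with TMM, 31 with DESeq2, 21 at 100 CPM and 2 at 300 CPM, against 13. Members higher in the suspensor than in the seed coat parenchyma numbered 75 with TMM, 78 with DESeq2, 78 with upper-quartile scaling, 44 without the 50 most abundant and 4 at 300 CPM, against 23. Lower ones numbered 0 with TMM, 0 with DESeq2, 0 with upper-quartile scaling, 4 without the 50 most abundant, 23 at 100 CPM and 3 at 300 CPM, against 13. Members higher in the embryo proper than in the seed coat parenchyma numbered 62 with TMM, 58 with DESeq2, 76 with upper-quartile scaling, 47 at 100 CPM and 8 at 300 CPM, against 31. Lower ones numbered 6 with TMM, 6 with DESeq2, 2 with upper-quartile scaling, 18 at 100 CPM and 2 at 300 CPM, against 10.

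Members highest in the embryo proper numbered 40 with TMM, 31 with DESeq2, 103 at 100 CPM and 21 at 300 CPM, against 63. Those highest in the suspensor numbered 86 with TMM, 95 with DESeq2, 78 with upper-quartile scaling, 61 without the 50 most abundant, 67 at 100 CPM and 12 at 300 CPM, against 38. Those highest in the seed coat parenchyma numbered 11 with TMM, 11 with DESeq2, 7 with upper-quartile scaling, 67 at 100 CPM and 9 at 300 CPM, against 36. The region that was highest for more members than any other was thus the embryo proper on unscaled totals, and the suspensor with TMM, DESeq2 and upper-quartile scaling and without the 50 most abundant (61 against 50 for the embryo proper). Under these 5 scalings more members were lowest in the seed coat parenchyma than in any other region.

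The members' share of reads in embryo proper, suspensor and seed coat parenchyma was 11.2%, 10.5% and 8.87% at 100 CPM and 7.04%, 6.52% and 5.06% at 300 CPM. For the gene models that met the rule with TMM it was 6.24%, 5.27% and 5.78%, with the suspensor share the lowest. That set was chosen anew on the TMM scale, so nothing is read from the order of its shares. Without the 2 members with most reads, chosen after seeing the data, the members' share was 6.55%, 6.06% and 5.56%. Successive members next to each other numbered 5 at 100 CPM, 0 at 300 CPM and 5 within 5 places, against 2. At the depth of the smallest library, thinning left 132 of the 137 members within the rule.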
